A study of Mus musculus with 2 samples.

Results

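The 10 genes described here mark Kupffer cells, the resident macrophages of the liver, or encode receptors with which these cells clear particles from the blood: Clec4f, Vsig4, Timd4, Cd5l, Marco, Cd163, Mrc1, Msr1, Folr2 and Adgre1. They were taken as a named set, 10 of the 32285 genes in the files, and those that stood higher were set against Cd163. Their RNA was followed in 2 droplet libraries of digested liver, with 1 mouse in each and no tumours in either. Both mice carried floxed Glul (Glulf/f), the gene of glutamine synthetase, and were 11 weeks old when infected. The control mouse was given AAV8-GFP and the other AAV8-Cre (GS_KO), and both livers were taken 2 weeks later. The labels do not name the promoter that drives Cre, and they do not give the proportion in which hepatocytes and other liver cells were combined. With 1 library per group no test between groups was possible, and every interval is an exact 95% interval for counting error only.

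Kupffer cells line the liver sinusoids and take up bacteria, dying cells, haemoglobin and modified proteins from portal blood. The class A scavenger receptors MARCO and MSR1 bind polyanionic ligands and bacteria. CD163 takes up haemoglobin bound to haptoglobin, the mannose receptor MRC1 takes up glycoproteins, VSIG4 binds complement-coated particles and TIMD4 binds phosphatidylserine on dying cells. CLEC4F is a lectin of mouse Kupffer cells, CD5L a secreted protein of tissue macrophages, FOLR2 a folate receptor and ADGRE1 the antigen F4/80.

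Levels were read in 2 sets of barcodes. Small barcodes held 200 to fewer than 400 UMIs (unique molecules) and were summed within a library, with 116552 control barcodes (38070357 UMIs) and 143687 GS_KO barcodes (43036904 UMIs). Levels are CPM, UMIs of a gene per 1000000 summed UMIs. C1q barcodes held at least 500 UMIs, at least 3 of them from C1qa, C1qb and C1qc, the genes of complement C1q that macrophages express. There were 143 in the control (94423 UMIs, median 575) and 996 in GS_KO (698169 UMIs, median 605). They made up 1.04% (0.881% to 1.23%) and 8.39% (7.90% to 8.90%) of barcodes with 500 or more UMIs, an 8.03-fold difference (6.74 to 9.64). In summed barcodes, more macrophages and more RNA per macrophage cannot be told apart.

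The labels state at least 10000 cells, and the files hold 166037 control and 175937 GS_KO barcodes, 13692 and 11871 of them with 500 or more UMIs. The libraries shared 8108 barcode sequences, 1 of them a C1q barcode in both. Glul stood at 113 CPM in control and 9.78 CPM in GS_KO small barcodes. The clock gene Dbp (150 and 2.07 CPM) and the acute phase gene Saa1 (74.5 and 5017 CPM) also differed, and their part in the results was not tested. Hepatocyte RNA was present in C1q barcodes, where a list of 12 hepatocyte genes stood at 59604 and 52920 CPM against 109591 and 127996 CPM in small barcodes.

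C1q barcodes carried all 10 genes at higher levels than barcodes of 500 or more UMIs with no C1q UMI. Clec4f stood 136-fold higher (110 to 168) in the control and 34.8-fold higher (30.6 to 39.5) in GS_KO. For Cd163 the excess was 96.7-fold (62.6 to 149) and 20.4-fold (10.6 to 41.0). Mrc1 had the smallest excess, 16.3-fold (10.8 to 23.8) and 15.4-fold (12.8 to 18.5). The control excess was the larger for each gene, but for Mrc1, Msr1, Folr2 and Adgre1 the intervals of the libraries overlapped. In the barcodes with no C1q UMI the level was higher in GS_KO for each gene but Cd163, with Clec4f at 16.2 and 42.9 CPM.

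In small barcodes, 9 of the 10 genes stood at least 1.5-fold higher in GS_KO and none stood 1.5-fold lower. Of 13688 genes with at least 20 UMIs, 21.0% were higher and 11.9% lower by that measure. The median log2 ratio (GS_KO over control) of the 10 genes was 2.49, against -0.01 over the 13688 genes. The C1q genes lay close to this, at 2.64 for C1qa, 2.94 for C1qb and 2.94 for C1qc, and 18 of 18 pan-macrophage genes were higher, with a median of 2.73. Markers of other immune cells were higher in small barcodes too: 10 of 11 measured monocyte and recruited macrophage markers (median 2.43), 8 of 8 of the dendritic cell and antigen presentation list (4.30), 5 of 5 of neutrophils (2.60), 6 of 7 of T and NK cells (3.39) and 6 of 7 of B and plasma cells (1.99). Their part in the higher levels of the 9 genes was not tested.

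Among the identity genes in small barcodes, Clec4f stood at 24.98 CPM (23.4 to 26.6) in control and 93.8 CPM (90.9 to 96.7) in GS_KO, 3.76-fold higher (3.50 to 4.03). Vsig4 stood at 13.1 CPM (12.0 to 14.3) and 70.6 CPM (68.1 to 73.2), 5.398-fold higher (4.91 to 5.95). Timd4 stood at 2.71 CPM (2.21 to 3.28) and 18.1 CPM (16.9 to 19.5), 6.71-fold higher (5.46 to 8.32). None of the control and GS_KO intervals of these genes overlapped, but the share of all genes without overlap was not counted. Cd5l stood at 13.4 CPM (12.3 to 14.6) and 81.4 CPM (78.7 to 84.1), 6.06-fold higher (5.52 to 6.66). Folr2 stood at 2.13 CPM (1.69 to 2.64) and 12.6 CPM (11.6 to 13.7), 5.92-fold higher (4.68 to 7.57). Adgre1 stood at 1.76 CPM (1.36 to 2.24) and 10.3 CPM (9.40 to 11.3), 5.88-fold higher (4.54 to 7.71). Clec4f, the lectin used to mark Kupffer cells in mice, had the lowest fold of these 6 genes.

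The 4 scavenger receptors of the set spread more widely. Marco had the highest fold of the 10 genes, at 2.34 CPM (1.88 to 2.88) and 18.0 CPM (16.8 to 19.3), 7.71-fold higher (6.19 to 9.72). Msr1 stood at 7.49 CPM (6.64 to 8.41) and 26.9 CPM (25.4 to 28.5), 3.59-fold higher (3.15 to 4.10). Mrc1 stood at 17.7 CPM (16.3 to 19.0) and 38.1 CPM (36.3 to 40.0), 2.16-fold higher (1.97 to 2.36). Marco and Msr1, both class A receptors, thus had ratio intervals that did not overlap. Cd163 stood at 3.89 CPM (3.29 to 4.57) and 4.69 CPM (4.07 to 5.39), 1.21-fold higher with an interval of 0.972 to 1.503, on 148 and 202 UMIs. It was the only one of the 10 whose ratio interval held 1, and 68.0% of the 13688 genes had a ratio at or below it.

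**Figure D1:**
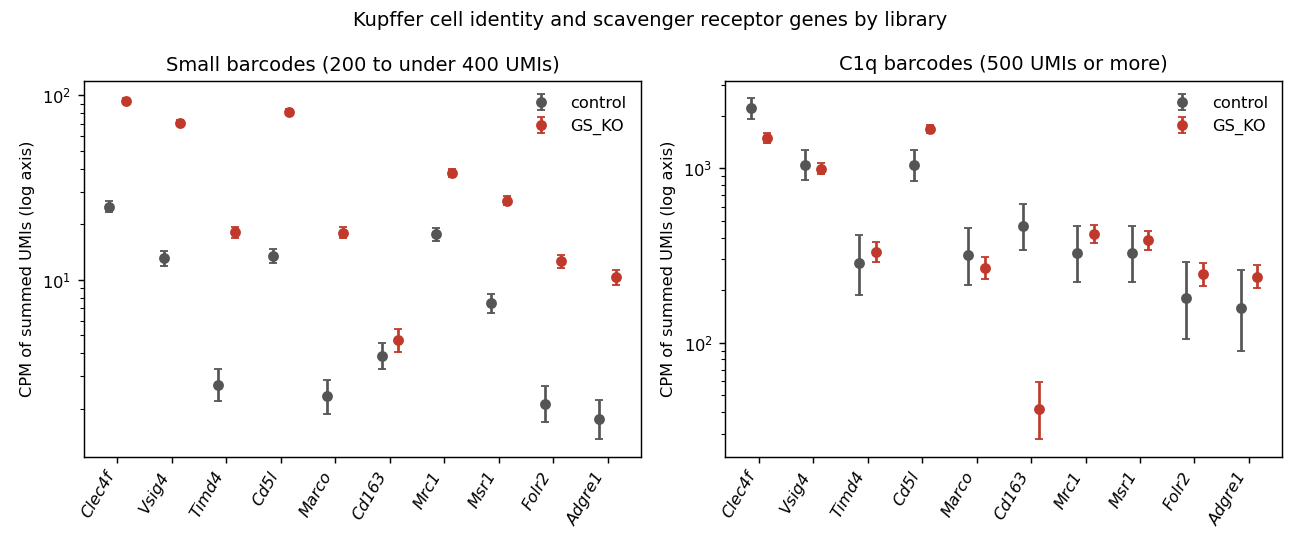
Levels of the 10 genes in control (grey) and GS_KO (red) as CPM of summed UMIs on log axes, with exact 95% Poisson intervals, in small barcodes (left) and C1q barcodes (right). On the left 9 genes are higher in GS_KO and Cd163 stands at 3.89 and 4.69 CPM, while on the right 7 genes lie within 1.5-fold and Cd163 stands at 466 and 41.5 CPM.

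Within C1q barcodes 7 of the 10 genes lay within 1.5-fold of each other in the libraries, 2 were higher in GS_KO (Cd5l and Adgre1) and 1 was lower (Cd163). Of 6078 genes with at least 20 UMIs there, 28.2% were higher and 17.1% lower, so neither count stands above the share over all genes. The median log2 ratio of the 10 genes was 0.20, against 0.00 over the 6078.

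Cd163 was far from the other 9. It had 44 UMIs in control and 29 in GS_KO C1q barcodes, or 466 CPM (339 to 626) against 41.5 CPM (27.8 to 59.7). The GS_KO level was 11.2-fold lower (6.86 to 18.6), on the log2 scale -3.48 with an interval from -4.22 to -2.78, and the intervals of the levels did not overlap. Of the 6078 genes, 4 (0.0658%) had a ratio this low, Cd163 among them. The other 3 were the immunoglobulin genes Igkv1-110 (1144 and 1.43 CPM) and Ighg2b (455 and 4.30 CPM) and the lipogenic gene Thrsp (445 and 38.7 CPM). The UMI minimum for the 6078 genes was counted over the libraries together, and GS_KO holds most UMIs in C1q barcodes. Genes low in GS_KO therefore passed less readily, and the rank of Cd163 among the 6078 is not a result. Thrsp was also lower in barcodes with no C1q UMI, at 1131 and 153 CPM. There Cd163 stood at 4.82 CPM (3.54 to 6.41) and 2.03 CPM (1.14 to 3.35).

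Clec4f and Cd5l differed in opposite directions in C1q barcodes. Clec4f stood at 2203 CPM (1914 to 2523) in control and 1492 CPM (1403 to 1586) in GS_KO (log2 ratio -0.56, interval -0.78 to -0.34). Cd5l stood at 1038 CPM (843 to 1265) and 1680 CPM (1585 to 1779) (log2 ratio 0.69, interval 0.40 to 1.01). Per Clec4f UMI there were 0.471 control and 1.13 GS_KO Cd5l UMIs, a ratio of ratios of 2.39 (1.84 to 3.11), and in small barcodes the ratio of ratios was 1.61 (1.43 to 1.82). The Clec4f difference varied with the size of the barcode: the log2 ratio was -0.84 (-1.11 to -0.56) at 500 to fewer than 600 UMIs and -0.02 (-0.38 to 0.38) at 600 or more. Cd5l was higher in both, at 0.63 (0.26 to 1.04) and 0.89 (0.43 to 1.43).

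The other 7 genes had log2 ratio intervals that held 0 in C1q barcodes. Vsig4 stood at 1048 CPM (852 to 1276) and 994 CPM (921 to 1071), and Timd4 at 286 CPM (188 to 416) and 331 CPM (290 to 376). Marco, highest in fold in small barcodes, stood at 318 CPM (214 to 454) and 269 CPM (232 to 311), with a log2 ratio of -0.26 (-0.80 to 0.37). Mrc1 stood at 328 and 421 CPM (0.34, -0.18 to 0.94) and Msr1 at 328 and 385 CPM (0.21, -0.31 to 0.82). Folr2 stood at 180 and 246 CPM (0.41, -0.27 to 1.27) and Adgre1 at 159 and 239 CPM (0.55, -0.17 to 1.46). Apart from Vsig4 these genes had 15 to 31 control UMIs, so differences within these intervals were not detectable at this depth.

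**Figure D2:**
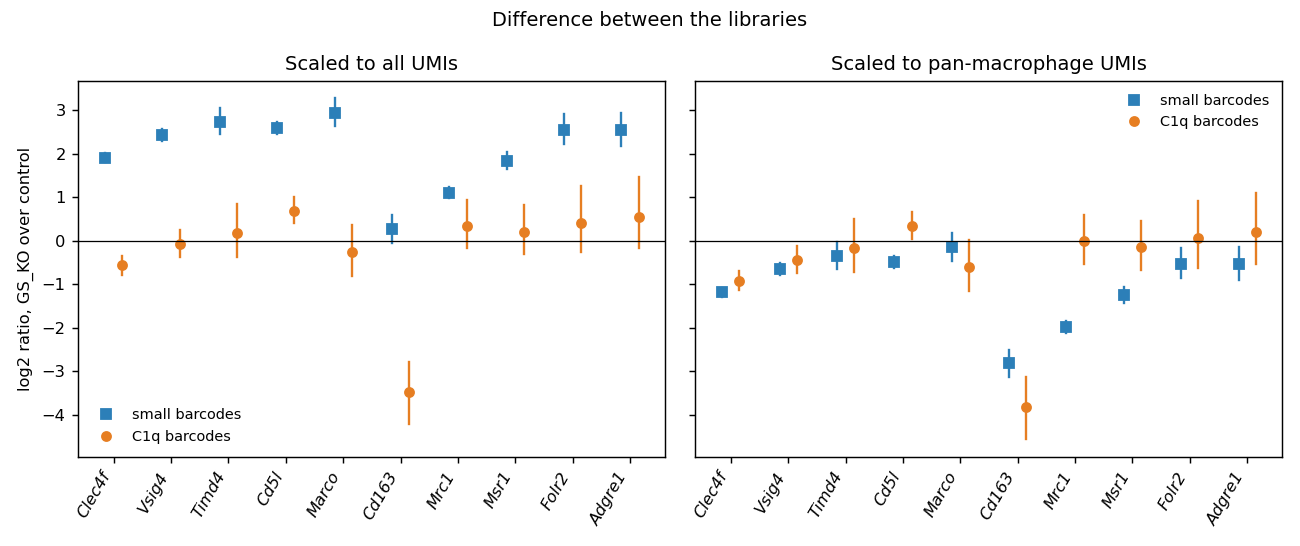
Log2 ratios of GS_KO over control for the 10 genes in small barcodes (blue squares) and C1q barcodes (orange circles), scaled to all UMIs (left) and to the summed UMIs of 18 pan-macrophage genes (right), with exact 95% intervals for counting error. Cd163 is lowest in each set and on each scale, at 0.27 and -3.48 on the left and -2.82 and -3.83 on the right.

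Levels were also scaled to 18 pan-macrophage genes, among them Tyrobp, Csf1r and Lyz2. Summed, these 18 genes stood at 126 CPM in control and 1071 CPM in GS_KO small barcodes. In C1q barcodes they stood at 9108 and 11642 CPM, so the scale itself differed more between the libraries in small barcodes. The level is then UMIs per 1000 pan-macrophage UMIs, and a change in those genes would itself move it. On this scale Cd163 stood at 30.9 in control and 4.38 in GS_KO small barcodes, 7.06-fold lower. In C1q barcodes it stood at 51.2 (37.2 to 68.7) and 3.57 (2.39 to 5.12), 14.3-fold lower. Cd163 was thus lower in both sets by this measure, although level in small barcodes per total UMIs. Marco stood at 18.6 and 16.8 in small barcodes (log2 ratio -0.15, interval -0.46 to 0.19) and at 34.9 and 23.1 in C1q barcodes (-0.61, -1.15 to 0.01). Clec4f was lower in both sets, at -1.18 (-1.28 to -1.08) and -0.92 (-1.13 to -0.69). Mrc1 stood at -1.98 (-2.11 to -1.85) in small and -0.02 (-0.53 to 0.59) in C1q barcodes.

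Ratios to Cd163 within a library do not depend on its depth. Per Cd163 UMI there were 0.601 Marco UMIs in control and 3.84 in GS_KO small barcodes, a ratio of ratios of 6.38 (4.66 to 8.77). In C1q barcodes the values were 0.682 and 6.48, a ratio of ratios of 9.41 (4.96 to 18.2). For Cd5l the ratios of ratios were 5.02 (3.95 to 6.37) in small and 18.1 (10.5 to 31.4) in C1q barcodes. Each of the 9 genes stood higher against Cd163 in GS_KO, in each set, with an interval above 1. The lowest values were those of Mrc1 in small barcodes, 1.79 (1.41 to 2.26), and of Clec4f in C1q barcodes, 7.58 (4.52 to 12.9). The genes set against Cd163 were those that stood higher, so this direction follows from the choice and is not a result in either set. All 9 ratios share the same Cd163 counts, 148 and 202 UMIs in small and 44 and 29 in C1q barcodes. They are therefore not 9 separate results. Of 6078 genes in C1q barcodes, 4 (0.0658%), Cd163 among them, had a log2 ratio at or below that of Cd163. In small barcodes 68.0% of 13688 genes did. In C1q barcodes genes low in GS_KO passed the UMI minimum less readily, as given above.

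With each barcode thinned to 500 UMIs, a Cd163 UMI was found in 30 of 143 control C1q barcodes (21.0%, 14.6% to 28.6%) and in 23 of 996 GS_KO ones (2.31%, 1.47% to 3.44%). Unthinned, the shares were 24.5% and 2.81%. In barcodes with no C1q UMI (medians 664 and 679 UMIs) the thinned shares were 0.235% and 0.0528%. The control level was spread over 35 barcodes, none of which held more than 2 Cd163 UMIs. Marco was found in 10.5% (5.99% to 16.7%) and 10.2% (8.43% to 12.3%) of C1q barcodes. Clec4f was found in 60.8% (52.3% to 68.9%) and 47.8% (44.6% to 50.9%), and Cd5l in 42.7% (34.4% to 51.2%) and 54.2% (51.1% to 57.3%). Between the libraries the intervals of Cd163 and Clec4f did not overlap, and those of the rest of the 10 genes did, for Cd5l only at the edge. The share of all genes without overlap was not counted. In barcodes with no C1q UMI the thinned share of each of the 10 genes was 2.37% or less.

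**Figure D3:**
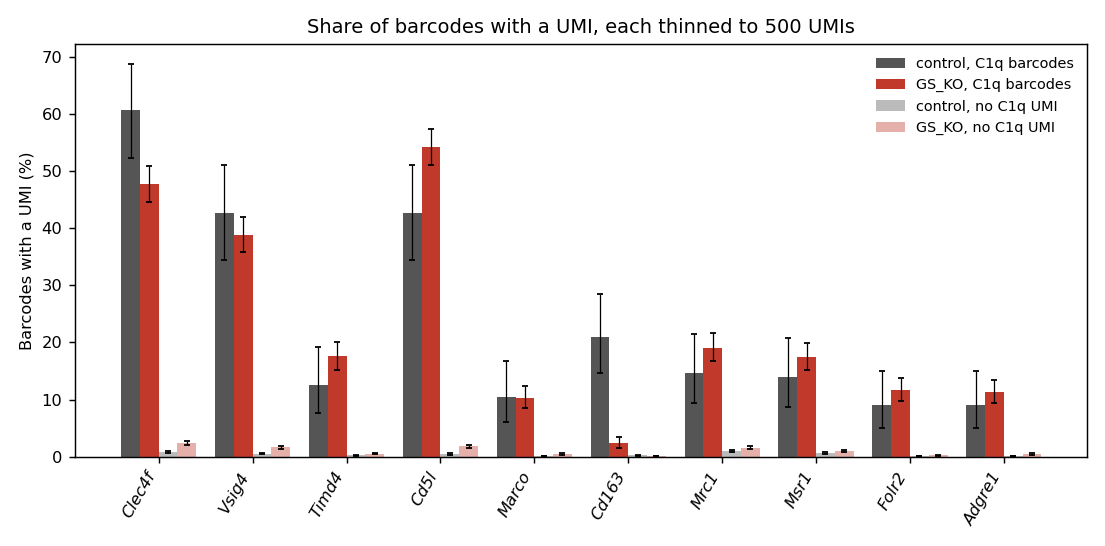
Share of barcodes with a UMI of each gene after thinning to 500 UMIs, with exact binomial 95% intervals, in C1q barcodes (143 control, 996 GS_KO) and in barcodes with no C1q UMI (13198 and 9474). Cd163 is found in 21.0% of control and 2.31% of GS_KO C1q barcodes, while Marco is found in 10.5% and 10.2%.

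Control C1q barcodes with a Cd163 UMI (35) and without one (108) had overlapping level intervals for the other 9 genes. Clec4f stood at 2556 CPM (1936 to 3312) with and 2094 CPM (1773 to 2455) without Cd163, and Marco at 404 CPM (185 to 766) and 291 CPM (180 to 445). Folr2 stood at 44.8 CPM (1.14 to 250) and 222 CPM (127 to 360), on 1 and 16 UMIs. In GS_KO the 28 barcodes with a Cd163 UMI held Cd5l at 2722 CPM (2078 to 3504), against 1646 CPM (1551 to 1746) in the 968 without. Clec4f likewise stood at 2269 CPM (1684 to 2991) with and 1467 CPM (1377 to 1561) without Cd163. The intervals of the rest of the 9 genes overlapped, and the share of all genes without overlap was not counted.

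Across barcodes with 3 or more C1q UMIs, Cd163 was lower in GS_KO at each size. At 300 to fewer than 400 UMIs it stood at 375 CPM (18 UMIs) and 111 CPM (38 UMIs), a log2 ratio of -1.78 (-2.60 to -0.86). At 400 to fewer than 500 UMIs it stood at 429 and 102 CPM (-2.07, -2.69 to -1.43), and at 500 to fewer than 600 UMIs at 543 and 50.1 CPM (-3.41, -4.55 to -2.38). The control level stayed between 349 and 543 CPM over the sizes, and the GS_KO level was lower in the larger barcodes. The smallest size, 200 to fewer than 300 UMIs, had 2 control and 9 GS_KO UMIs of Cd163 and an interval that held 0. Macrophage barcodes chosen without C1q, by 3 or more UMIs over Tyrobp, Fcer1g, Ctss, Csf1r, Cd68 and Laptm5, held Cd163 at 352 and 36.9 CPM (-3.25, -4.14 to -2.38). Over every barcode of the files, whatever its size, Cd163 stood at 6.15 and 6.21 CPM.

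**Figure D4:**
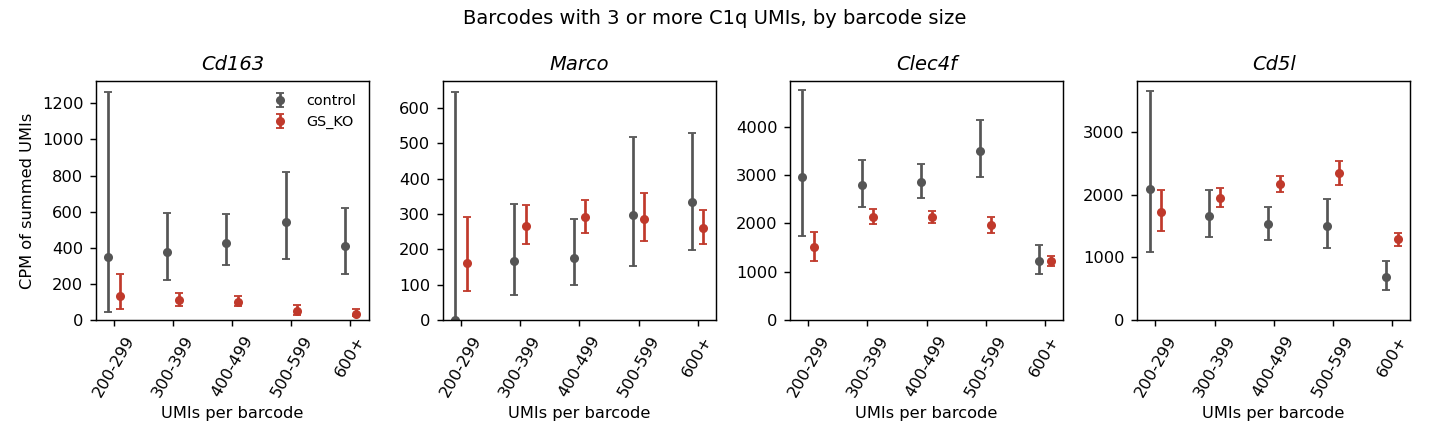
Levels of Cd163, Marco, Clec4f and Cd5l as CPM of summed UMIs in barcodes with 3 or more C1q UMIs, by the barcode's total UMIs, in control (grey) and GS_KO (red), with exact 95% Poisson intervals. GS_KO Cd163 runs from 133 CPM in the smallest to 36.5 CPM in the largest barcodes against 349 and 408 CPM in control, while Clec4f at 600 or more UMIs stands at 1225 and 1217 CPM.

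The Kupffer cell genes were found together with C1q in small barcodes. Barcodes with at least 1 C1q UMI held 1.32% of all control and 8.41% of all GS_KO UMIs of that size, but 35.1% (27.5% to 43.4%) and 40.6% (33.8% to 47.7%) of Cd163 UMIs. In these barcodes, a choice made after seeing the data, Cd163 stood at 104 CPM (77.3 to 136) and 22.7 CPM (18.0 to 28.1). In small barcodes without a C1q UMI it stood at 2.56 CPM (2.07 to 3.12) and 3.04 CPM (2.52 to 3.64). Among small barcodes, the lower GS_KO level was seen in those with a C1q UMI and not in those without. However, choosing small barcodes by a C1q UMI moved the median log2 ratio of the Kupffer cell set from 2.49 to -0.19. That of Cd163 moved from 0.27 to -2.20. The choice thus lowered the ratios of the set, and the contrast does not show where the Cd163 difference lies. Barcodes of 500 or more UMIs with no C1q UMI also had a lower GS_KO level of Cd163, as given above.

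Mrc1 and Msr1 are also expressed by sinusoidal endothelial cells. Of Mrc1 UMIs in small barcodes, 9.67% (7.54% to 12.2%) in control and 29.7% (27.4% to 31.9%) in GS_KO lay in barcodes with a C1q UMI, and of Msr1 UMIs 15.8% and 25.5%. Barcodes of 500 or more UMIs with no C1q UMI and at least 3 UMIs over the endothelial genes Stab2, Clec4g, Kdr, Oit3 and Gpr182 numbered 55 in control and 46 in GS_KO. They held 20 and 10 Mrc1 UMIs and 6 and 6 Msr1 UMIs, while Cd163, Marco, Timd4, Folr2 and Adgre1 had 0. These barcodes lacked C1q by choice and summed to 40402 control and 33843 GS_KO UMIs. That is too few to tell a low level of the genes at 0 from none. In small barcodes 3 of 14 endothelial markers were higher and none lower, and Stab2 stood at 22.9 and 31.3 CPM. How far endothelial RNA sets the lower fold of Mrc1 and Msr1 was not tested.

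Promoters are shown for Cd163, the gene that stood apart, and for Marco, Cd5l and Vsig4, expressed in the same barcodes. Each is the 250 bases before the gene's start in RefSeq's table for GRCm38.p6, read 5′ to 3′ on the gene's strand: Cd163 at chr6:124304401-124304650 (plus), Marco at chr1:120505025-120505274 (minus), Cd5l at chr3:87357631-87357880 (plus) and Vsig4 at chrX:96293439-96293688 (minus). Capitals mark GAGGAA or its reverse complement TTCCTC, a core of sites of the macrophage factor PU.1, and AGAACA or TGTTCT, a half-site of the glucocorticoid receptor. Of the 10 genes 8 had a window in the table.
Cd163: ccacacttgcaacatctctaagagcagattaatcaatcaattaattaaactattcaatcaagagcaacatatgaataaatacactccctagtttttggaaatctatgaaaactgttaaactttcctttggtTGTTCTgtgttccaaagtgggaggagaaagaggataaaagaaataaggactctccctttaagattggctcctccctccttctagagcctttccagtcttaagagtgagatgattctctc
Marco: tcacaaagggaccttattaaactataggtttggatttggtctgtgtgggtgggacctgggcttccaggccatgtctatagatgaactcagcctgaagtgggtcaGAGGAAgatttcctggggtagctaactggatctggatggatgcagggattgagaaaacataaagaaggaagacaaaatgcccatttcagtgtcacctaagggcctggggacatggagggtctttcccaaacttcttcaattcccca
Cd5l: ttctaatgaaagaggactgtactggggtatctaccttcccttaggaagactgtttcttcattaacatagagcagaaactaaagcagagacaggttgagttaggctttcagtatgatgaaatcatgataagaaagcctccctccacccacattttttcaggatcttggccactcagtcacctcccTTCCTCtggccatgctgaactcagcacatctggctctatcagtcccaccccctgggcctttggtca
Vsig4: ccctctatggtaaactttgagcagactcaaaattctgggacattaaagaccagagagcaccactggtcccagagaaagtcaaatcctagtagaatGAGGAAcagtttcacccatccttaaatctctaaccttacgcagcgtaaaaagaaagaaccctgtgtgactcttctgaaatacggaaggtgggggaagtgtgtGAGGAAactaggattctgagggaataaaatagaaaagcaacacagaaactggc
The PU.1 core was found 1 time each in the Marco and Cd5l windows, 2 times in that of Vsig4 and not in that of Cd163. It was also not found in the windows of Clec4f, Timd4 and Folr2, and was found 3 times in that of Mrc1. Of 32851 windows of this length in the table, 23.3% held it. The glucocorticoid receptor half-site was found 1 time in the Cd163 window, in none of the other 3, and in 16.1% of all windows. It was also found in the Clec4f window and in 1 of the 2 Folr2 windows. A MAF half-site, a nuclear receptor half-site, an E-box and an interferon element core were also searched for, and none was found in the Cd163 window. The MAF half-site was found 2 times in the Cd5l window, and these further motifs were not found in those of Marco and Vsig4. Each of them was held by 2.98% to 16.1% of all windows. All motifs were searched on both strands, and a match is one of letters only.

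Of 12 measured genes of haemoglobin and iron handling in C1q barcodes, 5 were at least 1.5-fold higher and none 1.5-fold lower. Of all 6078 genes there, 28.2% were higher and 17.1% lower. Hp, which encodes the CD163 ligand partner haptoglobin and is made by hepatocytes, stood at 1070 and 5063 CPM there and at 2041 and 14485 CPM in small barcodes. Hmox1, the haem-degrading enzyme, stood at 625 and 653 CPM in C1q barcodes. Slc40a1, the iron exporter, stood there at 1811 and 1262 CPM on 171 and 881 UMIs. Its log2 ratio of -0.52 was lower in GS_KO but short of 1.5-fold. In C1q barcodes the levels of Cd163 and Hp thus differed in opposite directions. Hepatocyte RNA was present in these barcodes, and its share in their Hp level was not tested. Adam17, the gene of a protease that sheds CD163 from the surface, stood at 116 and 107 CPM (log2 ratio -0.17, interval -1.04 to 0.95).

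Of 11 measured glucocorticoid and IL-10 response genes in small barcodes, 4 were higher and 4 lower, with a median log2 ratio of -0.20. In C1q barcodes 3 of 8 measured were lower and none higher, with a median of -0.39, beside 17.1% lower and 28.2% higher of all 6078 genes. Glucocorticoids are known to induce CD163 in macrophages. Fkbp5, a glucocorticoid target, stood at 254 and 28.6 CPM (-3.14, -4.08 to -2.23) and Zbtb16 at 159 and 75.9 CPM (-1.099, -1.91 to -0.13). Tsc22d3 stood at 95.3 and 58.7 CPM with an interval that held 0. Fkbp5 was also lower in barcodes with no C1q UMI, at 284 and 19.2 CPM. The receptor gene Nr3c1 stood at 222 and 168 CPM (-0.44, -1.09 to 0.34). The part of glucocorticoid signals in the Cd163 difference was not tested.

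Of 21 other genes of Kupffer cell identity, 8 were at least 1.5-fold higher and 1 was 1.5-fold lower in C1q barcodes, beside 28.2% and 17.1% of all 6078 genes. C6, a complement component, stood at 391.9 and 808 CPM, Fcna, a ficolin, at 996 and 859 CPM, and Zeb2, a transcription factor gene, at 593 and 795 CPM. In small barcodes 16 of 21 were higher and 2 lower. Id1, the gene of a transcriptional regulator and one of the lower ones, stood at 63.3 and 8.55 CPM. In C1q barcodes Id1 had 2 and 34 UMIs, with an interval that held 0.

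Of 20 measured scavenger and clearance receptors outside the set, 5 were higher and 5 lower in C1q barcodes. Lrp1, a receptor for many ligands, stood at 646 and 544 CPM, Mertk, a receptor for dying cells, at 381 and 265 CPM and Colec12 at 148 and 188 CPM. Trem2, a lipid-sensing receptor among the lower ones, stood at 116 and 18.6 CPM on 11 and 13 UMIs. In small barcodes 14 of 24 were higher and none lower. Of 8 measured innate signal and NF-kB genes in C1q barcodes, 4 were higher and none lower.

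Genes of antigen presentation moved with the groups in the same barcodes. In C1q barcodes the levels of Cd74 were 1906 and 8992 CPM, those of H2-Aa were 1144 and 6325 CPM, and 5 of 5 measured genes of the dendritic cell and antigen presentation list were higher. The dendritic cell markers Flt3 and Cd209a had 0 UMIs there in both libraries. Of 13 monocyte and recruited macrophage markers, 8 were at 0 in control and 1 in GS_KO, and their summed level was 254 and 354 CPM. Trem2 gave 11 of the 24 control and 13 of the 247 GS_KO UMIs in this sum. Of 4 measured markers 3 were higher and 1 lower, with a median log2 ratio of 1.56. Control C1q barcodes held 94423 UMIs against 698169 in GS_KO, so at equal levels more genes would be at 0 in control. Ccr2, a monocyte receptor gene, had 0 and 20 UMIs. Neutrophil markers summed to 21.2 and 51.6 CPM with Ly6g at 0 in both, T and NK cell markers to 0 and 7.16 CPM, and endothelial markers to 699 and 673 CPM. B and plasma cell markers summed to 763 and 325 CPM and stellate cell markers to 1048 and 677 CPM. The part of recruited or other cells in the Cd163 difference was not tested.

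Leaving out immunoglobulin, T cell receptor, ribosomal protein, mitochondrial, sex-linked marker and unnamed genes, a further 425 genes had at least 50 UMIs in C1q barcodes and a mean level over the libraries at least 3-fold above that in barcodes with no C1q UMI, and their median log2 ratio in C1q barcodes was 0.21. The minimum was counted over the libraries together, in which GS_KO has most of the C1q barcodes. Genes low in GS_KO therefore passed less readily, and the rank of Cd163 among the 425 is not a result. Nearest to Cd163 over both sets, by the summed absolute difference of log2 ratios, were Ntm (1.53), Egfem1 (1.78), Prkg1 (1.79), Abcc9 (2.06) and Ctsd (2.27). Their mean levels were 3.63-, 3.01-, 3.03-, 3.50- and 12.1-fold those in barcodes with no C1q UMI. All but Ctsd thus lay near the 3-fold minimum, and whether their RNA came from macrophages was not tested. Ntm stood at 434 and 81.6 CPM and Ctsd, a lysosomal protease, at 1123 and 453 CPM in C1q barcodes. The 5 lowest ratios were those of Ntm, Egfem1, Vcam1, Prkg1 and Abcc9. Vcam1, an adhesion molecule, stood at 339 and 87.4 CPM (-1.97, -2.60 to -1.29). The 5 highest were those of Cd52, Calhm6, Cd274, Art2b and Gbp2b. Cd274, which encodes the checkpoint ligand PD-L1, had 0 control and 60 GS_KO UMIs, at least 2.70-fold higher with the control set to 3 counts. Gbp2b, an interferon-induced GTPase, stood at 53.0 and 471 CPM.

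**Figure D5:**
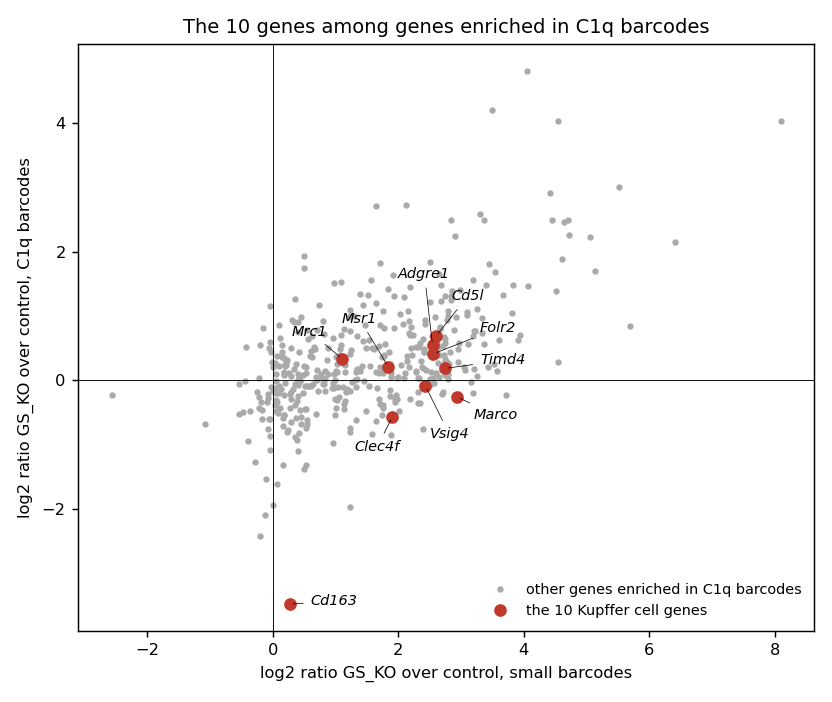
Log2 ratio of GS_KO over control in small barcodes (x axis) and in C1q barcodes (y axis) for the 10 genes (red) and 425 other genes enriched in C1q barcodes (grey). Cd163 lies at 0.27 and -3.48, while the other 9 genes lie between -0.56 and 0.69 on the y axis.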

How the data were processed

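Liver cells of 1 control and 1 GS_KO mouse were sequenced as 10x Genomics 5-prime libraries, named single-cell in some labels and single-nucleus in another. The authors deposited raw UMI counts per gene and barcode, for which the software was Cell Ranger 8.0.0 (per the file headers) and the build mm10 (per the submitters' processing notes). The sources used here do not say how barcodes were chosen. No doublet caller was run and free RNA was not removed. UMIs were summed over barcodes and scaled to CPM, and 0.5 counts were added to each sum for log2 ratios. Levels have exact Poisson, ratios exact conditional and shares exact binomial (Clopper-Pearson) 95% intervals. The code was tested on simulated counts. Alternatives used TMM (edgeR 4.0.16) and median-of-ratios size factors. Tools were Python 3.11.15, numpy 2.4.6, scipy 1.17.1, pandas 2.3.3 and matplotlib 3.10.9.

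A gene was called higher or lower at a 1.5-fold difference in CPM, given 20 or more UMIs over the libraries. Named genes were the 10 Kupffer cell genes, up to 4 of each list with the most UMIs, genes that sentences on Cd163, haemoglobin or shedding needed, and, among genes with at least 50 UMIs in C1q barcodes and 3-fold above barcodes with no C1q UMI, the 5 highest, the 5 lowest and the 5 nearest to Cd163. Igkv1-110, Ighg2b, Thrsp, Fkbp5, Tsc22d3, Id1, Trem2, Ccr2, Flt3, Cd209a and Ly6g were named after their values were seen, and 1 gene of the lists is not reported here by name. The 10 genes and the lists were chosen with earlier results of these data known.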

Additional observations from a re-analysis of the deposited data

How the results depend on the processing

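No paired analysis was possible because each group has 1 library, and no library could be left out. The 94423 control UMIs in C1q barcodes limit what can be detected there. Cd163 stayed lower in C1q barcodes under all 14 alternatives, at -2.49 with a minimum of 300 UMIs, and, in choices made after seeing the data, -2.62 with barcodes chosen by Clec4f and -2.64 by Vsig4 and Cd5l. In small barcodes Cd163 lay at -0.15 and the median of the 10 genes at 2.21 when these were cut to fewer than 300 UMIs. In small barcodes with a C1q UMI (added after seeing the data) the median was -0.19, 0 genes were higher and 2 lower, with Cd163 at -2.20, Clec4f at -0.84, Vsig4 at -0.25, Cd5l at -0.20, Msr1 at -0.15, Folr2 at -0.18 and Adgre1 at -0.36. Scaled to pan-macrophage UMIs the median was -0.60, 0 were higher and 5 lower, with Cd163 at -2.82, Clec4f at -1.18, Vsig4 at -0.66, Timd4 at -0.35, Cd5l at -0.49, Marco at -0.15, Mrc1 at -1.98, Msr1 at -1.25, Folr2 at -0.53 and Adgre1 at -0.55. These last settings take off the difference in macrophage RNA by construction.

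In C1q barcodes the number of the 10 genes that were higher (2) became 0 at 5 or more C1q UMIs, at 300 or more UMIs, with free RNA taken off and scaled to pan-macrophage UMIs. It became 5 at 1000 or more UMIs, and 1 with size factors and with barcodes chosen by 6 macrophage genes or by Vsig4 and Cd5l. The number lower (1) became 2 at 2 or more C1q UMIs, with 6 macrophage genes, thinned and with size factors, and 3 at 5 or more C1q UMIs, with free RNA taken off and scaled to pan-macrophage UMIs. The fold in the share of C1q barcodes was 12.9 at 5 or more C1q UMIs and 14.2 at 1000 or more UMIs. Over 210 genes of the other lists, 118 higher and 12 lower in small barcodes became 20 and 135 scaled to pan-macrophage UMIs, and the 12 became 7 at 2-fold. In C1q barcodes 42 higher and 21 lower became 26 and 35 on that scale and 25 and 10 at 2-fold, and the 42 became 76 with a minimum of 1 UMI. Where not given, the cause was not tested.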
